A study of Homo sapiens with 9 samples.

Results

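The sites described here are wild-type ZNF143 peaks of human HEC-1-B cells that overlapped a CTCF peak and a RAD21 peak in the same cells, but overlapped no ZNF143 and no CTCF peak in CTCF-degron cells after 24 h of auxin. They numbered 12213 of the 26102 wild-type ZNF143 peaks that overlapped both partners (triple sites), and of 36770 wild-type ZNF143 peaks on chromosomes 1 to 22 and X. They are called the sites without 24 h peaks, and were 46.8% of the triple sites (46.2 to 47.4), while 42.1% of all wild-type ZNF143 peaks had neither 24 h peak. The sites were chosen by overlaps of at least 1 bp with peaks of the 3 wild-type lists and the 2 lists from 24 h, so their missing 24 h peaks are a description and not a finding.

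HEC-1-B is a line of human uterine adenocarcinoma. ChIP-nexus recovers DNA bound to an antibody's target and trims it with exonucleases to the edge of the bound protein. The groups were unmodified cells (ZNF143, CTCF and RAD21 libraries), ZNF143KO cells (CTCF and RAD21 libraries), and CTCF-AID cells, in which CTCF carries an auxin-inducible degron, with IAA (auxin) for 0 h or 24 h (ZNF143 and CTCF libraries at each time). The protocol gives 500 µM IAA in cells that express TiR1, the plant F-box protein through which auxin sends a tagged protein to the proteasome. With 1 library in each of the 9 groups, differences between conditions could not be tested. The labels do not state whether the knockout and degron lines were single clones, and the degradation of CTCF and the loss of ZNF143 were taken from the labels. Intervals in brackets are exact 95% binomial intervals for shares, order-statistic 95% intervals for medians and Newcombe 95% intervals for differences, and they cover counting error over sites only.

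CTCF is a zinc-finger protein that binds a long DNA motif and acts as an insulator. Cohesin, whose kleisin subunit is RAD21, extrudes chromatin loops and is held where it meets CTCF in the right orientation, so that many CTCF sites are also cohesin sites and loop anchors. ZNF143 is a zinc-finger transcription factor known from promoters, small nuclear RNA genes among them, and has been found together with CTCF at loop anchors.

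Depth was estimated from the deposited fold and p-value of each peak as the most frequent background at a summit. It was 13.5 reads per kb in the 0 h and 12.1 in the 24 h ZNF143 library of CTCF-AID cells, but 12.8 in the 0 h and 3.89 in the 24 h CTCF library. The wild-type libraries had 5.98 to 8.64 and the knockout libraries 18.9 and 26.15 reads per kb. Peaks in the knockout lists started at a −log10 q of 5, and those in the other lists at 3.001 to 3.02. The 24 h CTCF library was thus the shallowest, and a missing 24 h CTCF peak at a weak site could not be told apart from a peak under its detection limit.

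The untreated degron cells showed that most of these sites did not go from 2 peaks to none. At 0 h of auxin, 4766 of the 12213 sites had both a ZNF143 and a CTCF peak (39.0%, 38.2 to 39.9), against 69.0% of all triple sites. A CTCF peak alone was present at 5244 sites (42.9%, 42.1 to 43.8; 21.8% of all triple sites). A ZNF143 peak alone was present at 78 sites (0.639%, 0.505 to 0.796; 0.912% of all triple sites). Neither peak was present at 2125 sites (17.4%, 16.7 to 18.1; 8.23% of all triple sites). A description as sites that lost both proteins after auxin therefore holds, by peak calls in the degron line, for the 4766 sites only. At the other 7447 sites at least 1 of the peaks was missing before auxin was added.

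By overlaps of at least 1 bp, ZNF143 peaks were missing at 0 h more often than CTCF peaks. With a reciprocal overlap of 50%, fewer sites matched a CTCF peak than a ZNF143 peak. A 0 h ZNF143 peak was found at 39.7% of the sites (38.8 to 40.5), against 69.9% of all triple sites and 73.1% of all wild-type ZNF143 peaks. A 0 h CTCF peak was found at 82.0% (81.3 to 82.6), against 90.9% of all triple sites and 65.9% of all wild-type ZNF143 peaks. The reciprocal overlap was applied to the whole rule, so it left a different set of 4389 sites in place of the 12213. In that set these shares were 53.7% (52.2 to 55.1) for ZNF143 and 49.6% (48.1 to 51.1) for CTCF. A peak under 50% as wide as its partner cannot pass that setting, even when it lies inside the partner. Median widths at the 12213 sites were 53 bp for wild-type ZNF143, 62 bp for 0 h ZNF143 and 138 bp for 0 h CTCF. The shares with the reciprocal overlap are therefore not read as missing peaks. With the 0 h lists at the size of the 24 h lists, 8.02% of the 12213 sites had a 0 h ZNF143 peak and 20.02% a 0 h CTCF peak. Wild-type and CTCF-AID cells are different lines with different libraries, so a site missing at 0 h may differ between lines or between libraries, and these cannot be told apart. The share with both 0 h peaks rested on the weaker part of the 0 h lists: with each 0 h list cut to the number of peaks of the 24 h list of its antibody it was 5.41%, and in the stronger 50% of the wild-type lists it was 66.7%.

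**Figure D1:**
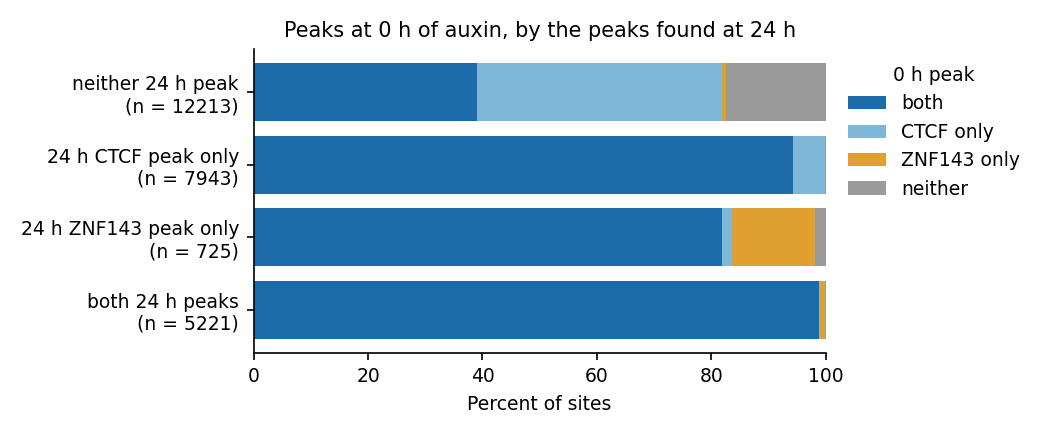
Horizontal bars give the percent of triple sites with both, 1 or neither of the 0 h ZNF143 and CTCF peaks, for the 4 combinations of 24 h peaks (number of sites in brackets). Sites with neither 24 h peak had both 0 h peaks in 39.0% of cases, and the other triple sites in 95.4%.

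The other triple sites fell into 7943 with a 24 h CTCF peak only, 725 with a 24 h ZNF143 peak only and 5221 with both. Both 0 h peaks were present at 95.4% (95.02 to 95.7) of these 13889 sites. Read from 0 h, 26.5% of the 18014 triple sites with both 0 h peaks had neither at 24 h. Of the triple sites with only a CTCF peak at 0 h, 92.0% had neither at 24 h, of those with neither at 0 h, 99.0%, and of the 238 with only a ZNF143 peak at 0 h, 32.8%.

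The sites without 24 h peaks were weaker than the other triple sites in all 3 wild-type lists. The signal, the authors' fold enrichment at the summit, is compared only between sites of the same list. For ZNF143 it had a median of 8.37 (8.32 to 8.43; quartiles 6.88 and 10.3) at these sites and 12.5 (12.4 to 12.6) at the other triple sites. For CTCF the medians were 18.9 (18.8 to 18.98) and 22.7 (22.6 to 22.7), and for RAD21 17.6 (17.4 to 17.7) and 21.8 (21.6 to 21.8). The quartile ranges of the groups overlapped in each of the 3 lists.

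Within the sites, signal followed the 0 h peaks. Sites with both 0 h peaks had wild-type medians of 9.81 for ZNF143, 20.9 for CTCF and 19.3 for RAD21. Those with a 0 h CTCF peak alone had 7.75, 18.1 and 17.9, and those with neither had 6.89, 15.99 and 12.5. The 78 sites with a 0 h ZNF143 peak alone had 8.27, 14.8 (13.5 to 18.1) and 8.82 (7.57 to 10.6). Their CTCF and RAD21 medians were the lowest of these classes, but the CTCF interval included the median of the sites with neither. A RAD21 median this low was not particular to them. It was 8.58 at the 725 triple sites with a 24 h ZNF143 peak only. In the 0 h CTCF list the sites with both peaks had a median signal of 16.1 and those with CTCF alone 10.8, against 21.8 at the other triple sites. In the 0 h ZNF143 list the sites with both peaks had a median of 8.37, against 13.3 at the other triple sites. The sites differed from other triple sites in the strength of their peaks before auxin, apart from the missing 24 h peaks by which they were chosen.

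**Figure D2:**
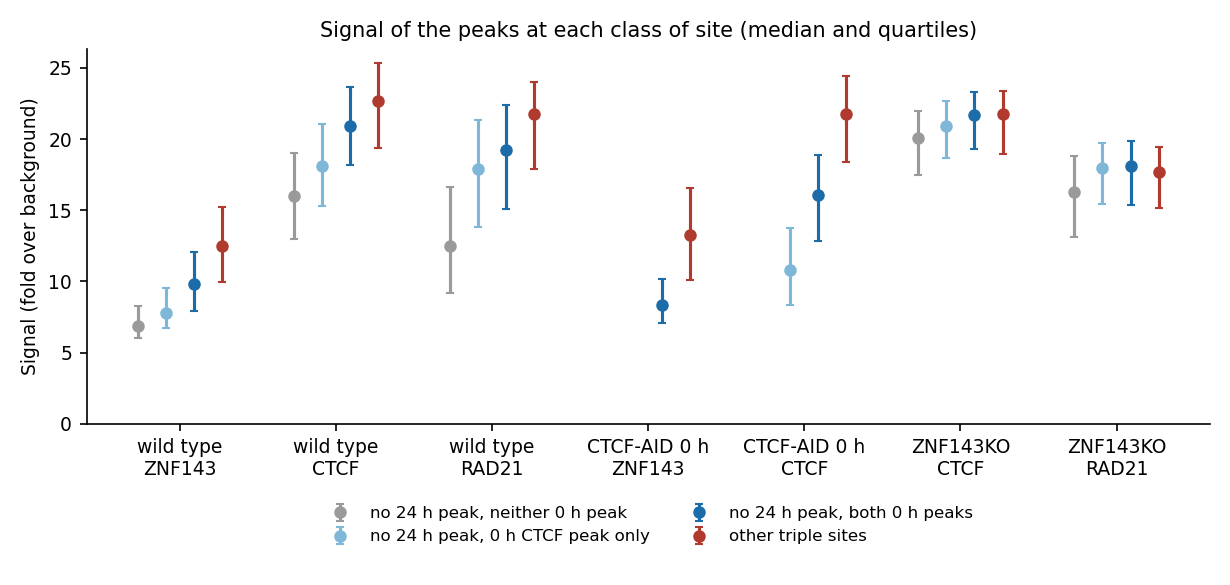
Points are median signals (fold over background) and bars are quartiles, for 3 classes of sites without 24 h peaks and for the other triple sites, in the 7 lists of wild-type, 0 h and knockout cells. Medians in the wild-type and 0 h lists lie below those of the other triple sites (red). In the knockout lists the medians lie closer together, with the sites with neither 0 h peak lowest.

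Peak width ran the same way. Wild-type ZNF143 peaks had a median width of 53 bp (53 to 54) at the sites without 24 h peaks and 78 bp (78 to 79) at the other triple sites. The CTCF peaks there were 110 and 132 bp wide, and the RAD21 peaks 122 and 158 bp.

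The share of triple sites without 24 h peaks depended strongly on wild-type signal. Ranked by ZNF143 signal, it was 79.1% (77.5 to 80.6) in the weakest decile and 7.01% in the strongest, where 183 of 2611 sites were without them. Ranked by CTCF signal, the share was 57.3% in the weakest decile, 75.6% in the next and 17.0% in the strongest. By RAD21 signal it was 57.5%, 72.2% and 23.4% in the same deciles. The weakest decile by CTCF or RAD21 signal thus lay below the next, and the ZNF143 ranking gave the widest range. Where all 3 wild-type signals exceeded the medians of triple sites, 1190 of 7170 sites were without 24 h peaks (16.6%, 15.7 to 17.5). Where none did, the share was 76.9% (75.9 to 77.9).

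The same held in the degron line itself. Among the 18014 triple sites with both 0 h peaks, 59.99% of the weakest decile by 0 h ZNF143 signal had neither 24 h peak, and 0.777% of the strongest (14 of 1802 sites). By 0 h CTCF signal the share was 47.2% in the weakest decile, 65.6% in the next and 1.94% in the strongest (35 sites). Where both 0 h signals were above their medians, 237 of 6633 sites had neither 24 h peak (3.57%, 3.14 to 4.05), against 55.4% (54.2 to 56.6) where both were at or below them.

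**Figure D3:**
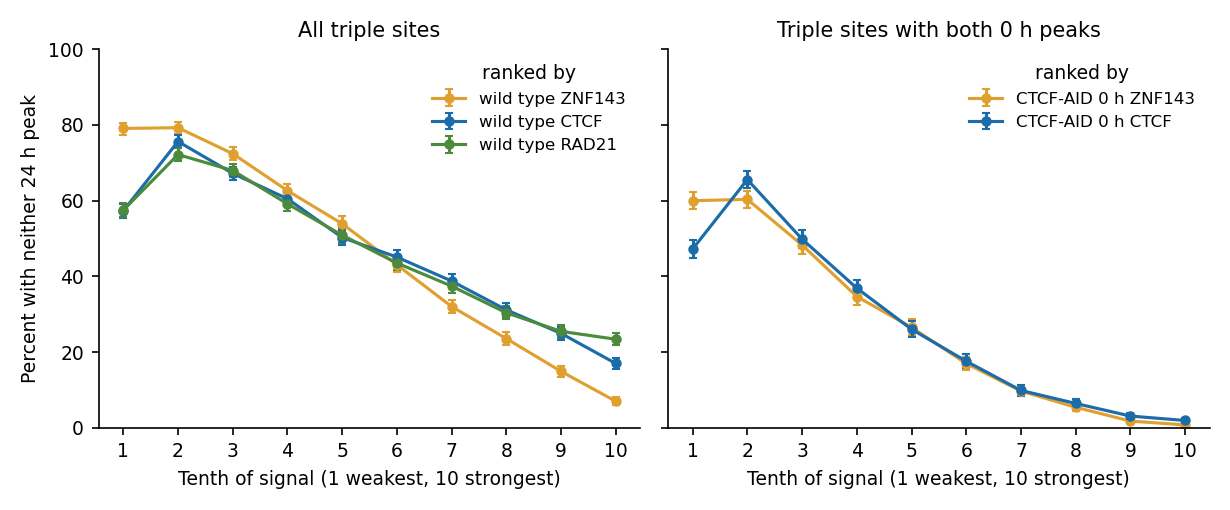
The percent of triple sites with neither 24 h peak is plotted against deciles of signal, ranked by the wild-type lists over all triple sites (left) and by the 0 h lists over triple sites with both 0 h peaks (right), with 95% intervals. From the second decile on each line descends, to 7.01% for wild-type ZNF143 and 0.777% for 0 h ZNF143 in the strongest decile.

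Summit read counts gave the same picture in the unit of reads. At the 4766 sites with both 0 h peaks, the 0 h CTCF summits held 8 to 87 reads with a median of 31, and the 0 h ZNF143 summits 6 to 62 with a median of 12. The other triple sites with both 0 h peaks had medians of 54 and 23. The fewest reads at any called summit were 4 in the 24 h CTCF list and 6 in the 24 h ZNF143 list. To set them on the depth of the 24 h library, 0 h CTCF counts were multiplied by the ratio of background at 24 h over 0 h. The ratio was 0.305 per kb and 0.166 per summit window, since the shortest peak, taken as the window, was 44 bp at 0 h and 24 bp at 24 h. The scaled CTCF counts had medians of 9.44 and 5.15 under these ratios, and 96.2% or 72.2% of the sites were at or above 4 reads. At the 5244 sites with a 0 h CTCF peak alone the 0 h median was 18 reads, and 74.8% or 26.8% reached 4. No summit in the 0 h CTCF list held more than 88 reads. Counts under such a ceiling do not grow in step with background, so the scaled counts and shares may be too low. For ZNF143 the ratios were 0.894 per kb and 0.836 per window; since the fewest reads at a called summit were 6 at both times, nearly every site called at 0 h would reach that minimum by construction, and no share is read from it. The part of the lower depth of the 24 h CTCF library in the missing CTCF peaks was not tested.

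The knockout lists were not used to choose the sites. In ZNF143KO cells 12186 of the 12213 sites had a CTCF peak (99.8%, 99.7 to 99.9) and 12141 a RAD21 peak (99.4%, 99.3 to 99.5), against 99.3% and 99.1% of all triple sites and 73.1% and 74.5% of all wild-type ZNF143 peaks. Neither was found at 18 sites. These shares were near those of all triple sites. With a reciprocal overlap of 50% in the whole rule, which left a different set of 4389 sites, they were 60.4% for CTCF and 51.5% for RAD21. At the 12213 sites the knockout peaks had median widths of 140 and 155 bp, against 53 bp for wild-type ZNF143. A peak under 50% as wide as its partner cannot pass that setting, so the lower shares are not read as missing peaks.

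The share with a knockout CTCF peak exceeded that of the other triple sites by 0.852 points (0.664 to 1.0495), and that with a RAD21 peak by 0.555 points (0.332 to 0.781). Of the 149 other triple sites without a knockout CTCF peak, 74 were among the 725 sites with a 24 h ZNF143 peak only, 67 among those with both 24 h peaks and 8 among those with a 24 h CTCF peak only. Against the sites with a 24 h CTCF peak only, those without 24 h peaks had fewer knockout peaks, by -0.120 points (-0.232 to -0.000522) for CTCF and -0.464 points (-0.626 to -0.303) for RAD21. The CTCF difference from the other triple sites was -14.4 points (-16.2 to -12.5) with a reciprocal overlap of 50%, which redefined both groups (4389 and 5267 sites). That setting depends on peak width. Under the rule of at least 1 bp, wild-type ZNF143 peaks were 53 bp wide at the sites and 78 bp at the other triple sites. The part of width in this difference was not tested. The CTCF difference was 0 in the stronger 50% of the wild-type lists, where every site of both groups had a knockout CTCF peak. With the knockout lists at the size of the wild-type lists, the differences were 4.76 points for CTCF and 3.62 points for RAD21, and with the 24 h CTCF list left out of the rule they were 2.20 and 2.10 points.

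Presence in the knockout varied among the 0 h classes. Knockout CTCF peaks were found at 4763 of the 4766 sites with both 0 h peaks and at 5243 of the 5244 with CTCF alone. They were found at 99.4% (98.96 to 99.7) of the sites with neither 0 h peak and at 68 of the 78 with ZNF143 alone (87.2%, 77.7 to 93.7). The absence of 0 h peaks at 2125 sites was therefore not shared by the knockout line: 2112 of them had a knockout CTCF peak and 2090 (98.4%, 97.7 to 98.9) a knockout RAD21 peak. The knockout libraries were deeper than the 0 h CTCF library, and the part of depth in this was not tested.

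Median knockout signals of the groups lay close together. The median knockout CTCF signal was 21.1 (20.99 to 21.1) at the sites without 24 h peaks and 21.8 (21.7 to 21.8) at the other triple sites. The median knockout RAD21 signal was 17.8 (17.7 to 17.8) and 17.7 (17.6 to 17.8), with intervals that overlapped. It was 17.04 (16.9 to 17.1) at sites with both 24 h peaks, below the sites without 24 h peaks, although wild-type RAD21 at the same sites ran the other way, at 22.1 and 17.6. The highest summit counts in these 2 lists were 50 and 44 reads, close to those of the shallower wild-type CTCF and RAD21 lists (54 and 42). The shortest peaks, taken as the summit window, were 25, 22, 27 and 21 bp in the same order. In the 0 h CTCF list the shortest peak was 44 bp and the highest count 88 reads. The highest count rose with the window across all 9 lists, so such a ceiling was not particular to the knockout lists. The part of the ceiling in how close the medians lay was not tested. Knockout RAD21 peak widths still differed, at 155 bp against 202 bp.

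The position of the 3 proteins within a site was compared by their summits. ZNF143 and CTCF summits lay a median 10 bp apart (9 to 10; quartiles 4 and 18) at the sites without 24 h peaks and 10 bp (10 to 10) at the other triple sites. ZNF143 and RAD21 summits lay 14 bp apart in both groups. These medians were equal, while the upper quartile of the ZNF143 to RAD21 distance was 23 bp at the sites without 24 h peaks and 26 bp at the other triple sites.

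CTCF and RAD21 summits lay closer together at the sites without 24 h peaks. Their median distance in wild-type cells was 14 bp (14 to 15; quartiles 6 and 27), against 17 bp (17 to 18) at all the other triple sites, 17 bp (16 to 18) at sites with a 24 h CTCF peak only and 19 bp (18 to 19) at sites with both 24 h peaks. Distances over 20 bp, a limit chosen after the values were seen, made up 35.5% of the sites without 24 h peaks and 43.7% of the other triple sites, a difference of -8.13 points (-9.31 to -6.95). Among sites with both 0 h peaks such distances made up 39.7% and 44.4% (-4.64 points, -6.25 to -3.003). The 725 sites with a 24 h ZNF143 peak only were the exception, with a median of 10 bp (9 to 12).

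The order was found again in the knockout libraries, which the choice of sites did not use. There the median CTCF to RAD21 distance was 12 bp (12 to 12) at the sites without 24 h peaks and 14 bp (14 to 15) at the other triple sites, and distances over 20 bp made up 30.6% and 37.7%, a difference of -7.11 points (-8.26 to -5.95). Among the sites with both 0 h peaks the difference was -3.07 points (-4.65 to -1.47).

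Among sites of like signal the difference depended on the ranking and on the decile. In deciles of wild-type CTCF signal the median distance at the sites without 24 h peaks stayed between 13 and 15 bp. At the other triple sites it was 5 bp in the weakest decile and 16.5 to 20 bp in the others. The intervals lay apart with the shorter distance at the sites without 24 h peaks in 7 of 10 deciles, overlapped in 2, and lay apart the other way in the weakest. In deciles of knockout CTCF signal these numbers were 8, 1 and 1. Ranked by wild-type RAD21 signal they were 4, 4 and 2, with 13 bp against 6 bp in the weakest decile and 15 bp against 20 bp in the strongest. Ranked by wild-type ZNF143 signal they were 2, 7 and 1. Among sites with both 0 h peaks, no decile of 0 h CTCF or 0 h ZNF143 signal had a shorter distance at the sites without 24 h peaks with intervals apart: 9 overlapped and 1, the weakest, lay the other way in each ranking, with as few as 14 such sites in a decile. The shorter median over all the sites was thus reversed in the weakest decile of every ranking. Overlapping intervals in the other deciles do not show equal distances. By 0 h CTCF signal, the medians at the sites without 24 h peaks were shorter from the third decile on, at 16 against 17 bp there and 17 against 22 bp in the strongest. By 0 h ZNF143 signal the medians differed in both directions. RAD21 peaks were also narrower at the sites without 24 h peaks, by the widths given above. The part of peak width in the distances was not tested.

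**Figure D4:**
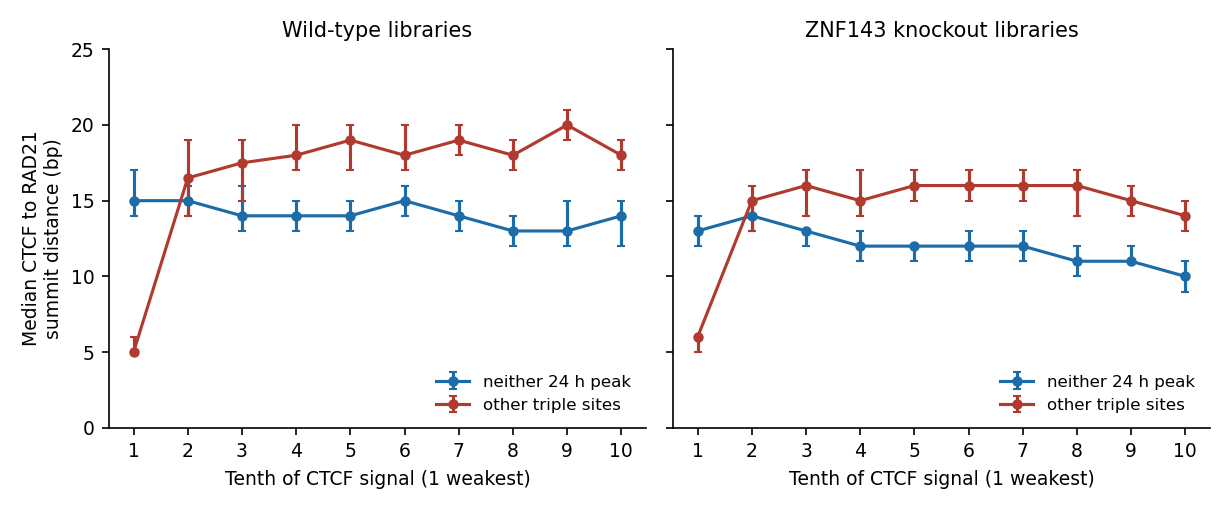
Median distance in bp between CTCF and RAD21 summits, with 95% intervals, by decile of CTCF signal in wild-type (left) and knockout (right) libraries. Sites with neither 24 h peak (blue) stay between 13 and 15 bp in wild type, below the other triple sites (red) in the stronger deciles. In the weakest decile they lie above them, at 15 against 5 bp in wild type and 13 against 6 bp in the knockout. Rankings by RAD21 or ZNF143 signal, not drawn, had fewer deciles with the shorter distance and intervals apart.

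The change of that distance between genotypes was alike in both groups. At 12132 sites without 24 h peaks and with both knockout peaks, the distance was shorter in the knockout at 53.1% (52.2 to 53.97), longer at 43.9% and equal at 3.04%. At the other triple sites it was shorter at 53.7% (52.8 to 54.5). The median change was -1 bp (-2 to -1) in both.

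Summits of ZNF143 and RAD21 lay on the same side of the CTCF summit at 63.8% (62.9 to 64.7) of the sites without 24 h peaks, among those where neither coincided with it. At the other triple sites this share was 67.7% (66.9 to 68.5), a difference of -3.90 points (-5.08 to -2.71). Because 1 CTCF summit is common to both distances, an error in its position alone puts the others on the same side, so the shares are compared and not read as geometry.

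The strongest sites with both 0 h peaks were ranked by the lowest of their percentiles in the 3 wild-type lists. Positions are on GRCh37 (hg19), and the genes there were not analysed here. The first, chr20:49988961-49989032, had wild-type signals of 20.1 for ZNF143, 25.6 for CTCF and 25.1 for RAD21. Its 0 h signals were 7.75 for ZNF143 and 23.8 for CTCF, and its knockout signals 24.6 for CTCF and 17.97 for RAD21. The site combined a strong wild-type ZNF143 peak, above 92.0% of that list, with a weak one in the untreated degron line. Its nearest 24 h peak was 31673 bp away.

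At chr3:150643605-150643711 the wild-type signals were 19.4 for ZNF143, 29.8 for CTCF and 24.2 for RAD21, the 0 h signals 13.5 and 21.7, and the knockout signals 23.5 and 15.9. At chr17:64902945-64903017 they were 19.2, 25.4 and 24.9 in wild type, 16.1 and 24.1 at 0 h, and 22.1 and 17.8 in the knockout. This was the highest 0 h ZNF143 signal among the 8 strongest sites, whose 0 h ZNF143 signals ran from 7.75 to 16.1.

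The other 5 were chr20:50416825-50416917, chr3:141160367-141160465, chr2:128349159-128349257, chr16:58131265-58131329 and chr5:158583933-158584004. Over all 8, wild-type signals were 18.3 to 20.1 for ZNF143, 25.02 to 30.3 for CTCF and 24.2 to 26.8 for RAD21, and 0 h CTCF signals 12.2 to 29.96. The nearest 24 h peaks of the 8 lay 13478 to 99322 bp away. Knockout CTCF signals of 21.3 to 24.6 and RAD21 signals of 15.9 to 21.9 were present at all of them.

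A site of median rank among those with both 0 h peaks was chr10:48427002-48427100, with wild-type signals of 9.42 for ZNF143, 25.1 for CTCF and 22.4 for RAD21. Its 0 h signals were 8.45 for ZNF143 and 15.2 for CTCF. The next, chr14:76819276-76819333, had 9.42, 18.9 and 18.5 in wild type and 7.75 and 20.999 at 0 h. In both the ZNF143 peak held the lowest rank of the 3.

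Among sites with a 0 h CTCF peak alone, the strongest were chr3:172208083-172208154, chr9:90427933-90428011 and chr11:3509367-3509420. Their wild-type ZNF143 signals of 20.98, 18.9 and 19.3 were above at least 90.4% of that list, yet no 0 h ZNF143 peak overlapped them. Their CTCF signals were 28.6, 31.3 and 24.8 in wild type and 15.8, 10.2 and 19.9 at 0 h.

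The strongest sites with neither 0 h peak were chr16:8885905-8885971, chr21:45031867-45031974, chr9:35259009-35259047 and chr1:10010519-10010595. They had wild-type signals of 13.4 to 17.8 for ZNF143, 21.9 to 25.8 for CTCF and 21.2 to 26.4 for RAD21. In the knockout their CTCF signals were 20.4 to 24.2 and their RAD21 signals 17.6 to 21.6. All 4 stood at or above percentile 71.4 in each wild-type list and had peaks in all 5 libraries of wild-type and knockout cells yet had none in the 4 libraries of the degron line, treated or not.

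The strongest site with a 0 h ZNF143 peak alone was chr6:11242063-11242139. It had wild-type signals of 18.96 for ZNF143, 30.4 for CTCF and 23.7 for RAD21, a 0 h ZNF143 signal of 6.95, and no 0 h CTCF peak. Its wild-type CTCF signal was above 99.8% of that list. The next 2, chr17:65796639-65796741 and chr7:47140579-47140654, had wild-type CTCF signals of 23.2 and 24.3 and 0 h ZNF143 signals of 4.70 and 5.69.

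Few sites were near the overlap limit. The nearest 24 h peak of either protein was a median 33476 bp away, and 45 sites (0.368%) had one within 10 bp and 487 (3.99%) within 1 kb. Just inside the rule, chr1:437904-437931 and chr2:208838108-208838154 touched a 24 h CTCF peak with a gap of 0 bp. Just outside it, chr1:45259511-45259564 and chr7:19531630-19531667 shared 1 bp with 24 h CTCF peaks of signals 4.45 and 6.77. The sites were nearly all distinct: 36 of the 12213 shared a wild-type CTCF peak with another of them and 34 shared a RAD21 peak.

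Sites without 24 h peaks were found on every chromosome analysed, in shares of the triple sites from 38.2% (35.3 to 41.2) on chromosome 19 to 57.4% (53.8 to 60.9) on chromosome X. Chromosomes 13 and 4 followed X, at 57.0% (52.8 to 61.1) and 55.6% (52.2 to 59.0), with overlapping intervals. Among triple sites with both 0 h peaks, the share was again highest on X, at 34.7% (30.3 to 39.3), and on chromosome 4, at 33.1% (29.1 to 37.4). On chromosome 19 it was 24.7% (21.9 to 27.8), close to the 26.5% of all chromosomes. Triple sites on X and 4 also had the lowest median wild-type ZNF143 signals, 7.75 on each. Chromosomes 16 and 3 had shares of 52.1% and 50.8% with median signals of 11.3 and 11.7, above the 10.3 of all triple sites. The part of signal in the chromosome shares was not tested.

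**Figure D5:**
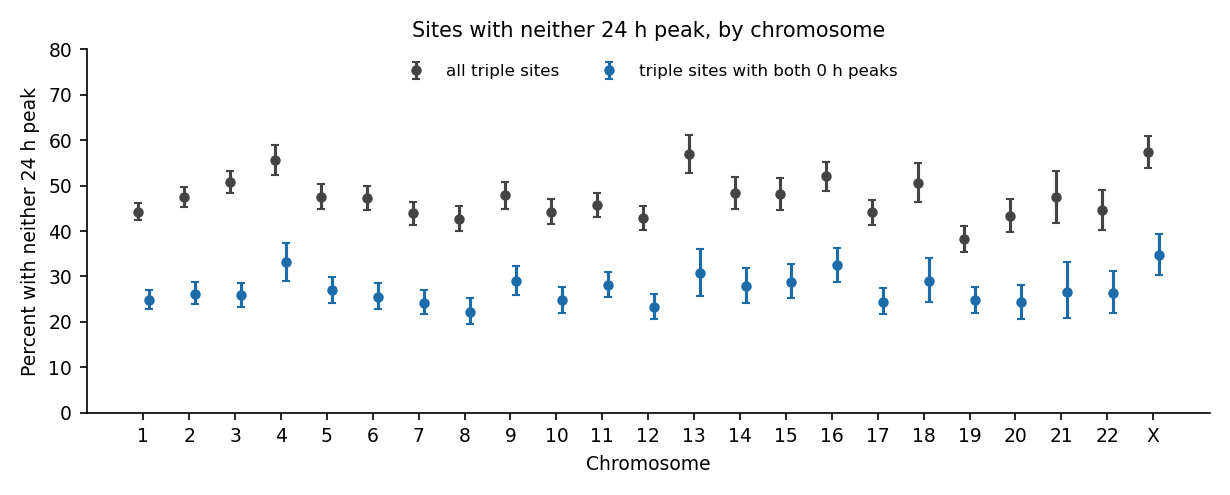
Points give the percent of triple sites with neither 24 h peak on each chromosome, with 95% intervals, for all triple sites (dark) and for those with both 0 h peaks (blue). Chromosome X has the highest shares in both, 57.4% and 34.7%.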

How the data were processed

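The 9 groups of HEC-1-B cells gave 9 ChIP-nexus peak lists, from 1 library each. Per the submitters' processing notes the tools were cutadapt 2.10, Bowtie2 2.3.5.1, SAMtools 1.12, MACS2 2.2.7.1 and deepTools, on GRCh37 (hg19). Peak caller settings and pooling are not given in the sources used here. The deposited score equals the −log10 q of a peak multiplied by 10, without its decimals. The deposited signal is a fold, the ratio of reads at the summit over local background, and the deposited −log10 p-value and q-value are the peak caller's.

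Lists on chromosomes 1 to 22 and X were joined by overlaps of at least 1 bp in Python 3.11.15 with numpy 2.4.6, pandas 2.3.3 and scipy 1.17.1. Figures used matplotlib 3.10.9. Summit counts and background were solved from each fold and p-value with a pseudocount of 1, an assumption, and returned the deposited p within 0.002 on the log10 scale for 100% of peaks; this step was chosen after the values were seen. The scripts were tested on simulated data.

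Members, lists and tests were chosen with earlier results of these data known. Named regions, outside chromosome 8, were ranked by the lowest of their percentiles in the 3 wild-type lists: the highest 8, 3, 3 and 4 sites with both, ZNF143 only, CTCF only and neither 0 h peak, 2 of median rank, and the 2 nearest each side of the overlap limit. Alternatives were a reciprocal overlap of 50%, summits within 50 bp, a −log10 q of at least 5, stronger wild-type peaks, lists of equal size and, added after the data were seen, the rule without the 24 h CTCF list. Sequence letters and gene starts, 2 planned results, were not analysed here because no genome of the build was used.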

Additional observations from a re-analysis of the deposited data

Results flagged for a closer look

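On sequences outside chromosomes 1 to 22 and X, which no comparison above used, 66 sites followed the same rule. They were 23.2% (18.5 to 28.6) of the 284 triple sites there, against 46.8% on the analysed chromosomes, and 27 of the 66 had both 0 h peaks. They are listed because any count above 3 on unused sequences was to be given, which says nothing about the sites themselves.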

How the results depend on the processing

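Of 57 alternatives to 10 main results, 21 kept the value within its interval or the difference on its side of 0. Another 33 moved it, 2 ended a difference and 1 reversed it. The causes were not tested, beyond the fewer peaks each stricter setting leaves and the like peak widths that a reciprocal overlap requires. With a reciprocal overlap of 50% (4389 sites), the sites made up 45.5% of triple sites, 25.5% had both 0 h peaks, 53.7% a 0 h ZNF143 peak, 49.6% a 0 h CTCF peak, 60.4% a knockout CTCF peak and 51.5% a knockout RAD21 peak, the CTCF to RAD21 distance was 16 bp, and the knockout CTCF difference reversed to -14.4 points. With summits within 50 bp (12075 sites) the share of triple sites was 47.9%, the 0 h CTCF share 81.1%, and the knockout shares 99.38% and 98.5%. At a −log10 q of at least 5 (11896 sites) the share was 47.7%, with 41.4% having both 0 h peaks, 41.9% a 0 h ZNF143 peak, 84.7% a 0 h CTCF peak and 99.56% a knockout RAD21 peak.

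In the stronger 50% of the wild-type lists (2736 sites) these were 23.2%, 66.7%, 66.9% and 96.7%, with 100% in both knockout lists, a ZNF143 to CTCF distance of 8 bp, and differences from the other triple sites of 0 points (-0.140 to 0.0425) for CTCF and 0.0111 points (-0.129 to 0.0627) for RAD21. With the 0 h lists at the size of the 24 h lists, 5.41% had both 0 h peaks, 8.02% a ZNF143 peak and 20.02% a CTCF peak. With the knockout lists at the size of the wild-type lists, 99.62% had a CTCF and 98.66% a RAD21 peak. Without the 24 h CTCF list in the rule (20156 sites, chosen after seeing the data), the share was 77.2%, with 60.8% having both 0 h peaks, 61.2% a ZNF143 peak, 89.02% a CTCF peak and 99.59% a knockout RAD21 peak. Of 22 named sites, 8 were found again with the reciprocal overlap and 19 to 22 under the other settings that change the rule. The depth of the 24 h CTCF library, 3.89 reads per kb of background, limits the calls that the rule rests on.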

Other observations

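Triple sites lay near each other less often where 24 h peaks were missing. The nearest other triple site was a median 28456 bp (27620 to 29395) from a site without 24 h peaks and 19397 bp (18795 to 19937) from one of the other triple sites. A neighbour within 10 kb was present at 24.4% of the sites without 24 h peaks and at 34.1% of the others. Where it was, the neighbour had no 24 h peaks in 45.4% (43.6 to 47.2) and 34.3% (32.9 to 35.7) of cases, against 46.8% of all triple sites. Beyond 10 kb these shares were 51.0% (50.02 to 52.1) and 46.5% (45.5 to 47.6). At both ranges the share was higher near the sites without 24 h peaks than near the others, with intervals apart. The 46.8% is not a baseline for neighbours within 10 kb. The sites with such a neighbour were 2980 without 24 h peaks and 4730 of the others. The part of signal in these shares was not tested. Neighbouring sites are not independent, since 2 sites can each be the other's nearest.

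Summit positions of 1 protein differed between libraries by about as much as the summits of different proteins lay apart. At the sites without 24 h peaks the CTCF summit lay a median 7 bp from its wild-type position in the knockout and 11 bp at 0 h, the RAD21 summit 7 bp in the knockout, and the ZNF143 summit 11 bp (10 to 11) at 0 h. At the other triple sites these medians were 7, 10, 7 and 9 bp (9 to 9 for ZNF143). These shifts are measured site by site. They are not the error of the median CTCF to RAD21 distances of the groups in wild type, 14 bp (14 to 15) against 17 bp (17 to 18).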
